A study of Caenorhabditis elegans with 36 samples.

Results

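The vitellogenin genes vit-1 to vit-6 of Caenorhabditis elegans were examined for the small RNAs counted on them. All 6 genes were found by their symbols among the 46739 gene identifiers of the small RNA gene tables. They had between 11.83 and 67 small RNA reads each in every adult library and 0 reads in every embryo library. In adults, 1 of the 6, vit-6, passed the test in nip2nip3 mutants against wild type, and that call did not hold under several other settings. The other 5 genes did not pass in either mutant in the main fit, with TMM scaling, the scaling used unless another is named. Some of them passed under another setting. In the main fit the fold changes of vit-1 to vit-5 lay above those of most X-linked genes, a group that was lower in both mutants.

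The study examined candidate factors for the inheritance of RNA-mediated silencing across generations. Small RNAs came from whole young adults (YA in the sample titles, called adults here) of the genotypes nip2nip3 (3 libraries), nip3_qe17 (3 libraries) and wt (2 libraries). Others came from early mixed-stage embryos of the genotypes nipnip2 (2 libraries) and wt (2 libraries). Each embryo group was measured as NRDE-3 immunoprecipitate (IP) and as input. The embryo columns of the count tables carry other names than the samples (nip1nip1_1 and nip1nip2_2 where the labels have nipnip2) and other numbers, and were assigned to a genotype by group only. All nipnip2 values rest on that assignment. The labels attach a FLAG tag to NRDE-3 in all embryo samples, wt included, and name an anti-FLAG antibody. NRDE-3 is an Argonaute protein that carries small RNAs into the nuclei of somatic cells. Culture was at 20 degrees with HB101 bacteria as food, with no treatment, and no further allele or agent is labelled for any group. The labels do not say which genes the nip names stand for, how many lines carry each genotype, or whether animals were pooled, so the tests see the variation among these libraries alone, and it may be technical. Adult libraries held 6362077 to 10962202 reads on genes, embryo inputs 1149366 to 2200655 and embryo IPs 2957435 to 5956980. Among the adult libraries, nip3_qe17 replicate 1 stood farthest from the others of its group, with a chi-square per degree of freedom of 46.0 and 39.8 against replicates 2 and 3, where replicates 2 and 3 differed by 9.003. Leaving it out moved no vitellogenin gene across the threshold. The same measure was 96.9 between the wt IP libraries, the highest of any pair in a group.

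Vitellogenins are the precursors of yolk. In adult hermaphrodites the intestine makes them in very large amounts and secretes them into the body cavity, and oocytes take them up through the receptor RME-2. The products of vit-1 to vit-5 are closely alike large yolk polypeptides, and the product of vit-6 is cut into smaller ones. Most endogenous small interfering RNAs of the worm are made by RNA-dependent RNA polymerases on the messenger RNA they match, and read antisense to it. The counting strand and read length are not given in the sources used here, so reads antisense to a vitellogenin messenger RNA and fragments of that messenger RNA itself cannot be told apart in these counts. The RNA-seq files list repeat families and no genes, so messenger RNA levels of the 6 genes were not analysed here. No sequence of the 6 genes was at hand, and none is shown.

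In the WBcel235 annotation, the assembly that ce11 names, 5 of the 6 genes lie on chromosome X and vit-6 lies on chromosome IV. The X-linked genes, in order along the chromosome, are vit-5 at 3403471 to 3408603, vit-4 at 3558769 to 3563965, vit-3 at 3567355 to 3572549, vit-2 at 5101032 to 5106169 and vit-1 at 7727889 to 7733168. The gap between vit-4 and vit-3 is 3389 bases, and that between vit-5 and vit-4 is 150165 bases. On chromosome IV, vit-6 spans 8261157 to 8266459. The spans are alike, between 5133 bases for vit-5 and 5303 bases for vit-6, so that levels per kb of span keep nearly the order of the read counts. Coding lengths were not at hand, so levels per length refer to the gene span, introns and untranslated parts included. The reads could not be placed within a gene from these files.

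Levels in wt adults were low against the median of all protein-coding genes and lay in 2 tiers. In wt adults vit-2 had 6.48 and 6.75 CPM (its reads scaled to the library's total on genes) and vit-6 had 5.74 and 5.93 CPM. The other genes were lower in those 2 libraries. In wt adults vit-5 had 3.81 and 3.33 CPM, vit-3 had 3.23 and 2.78 CPM, and vit-4 had 3.08 and 2.71 CPM. The most variable gene was vit-1, at 4.60 CPM in wt replicate 1 and 1.65 CPM in wt replicate 3. Per kb of span the wt means were 1.29 ± 0.038 CPM for vit-2, 1.10 ± 0.025 for vit-6, 0.696 ± 0.067 for vit-5, 0.592 ± 0.394 for vit-1, 0.578 ± 0.061 for vit-3 and 0.557 ± 0.050 for vit-4 (SD, n = 2 each). The libraries of vit-2 and of vit-6 did not overlap on that scale, nor did either overlap with vit-5. Both libraries of vit-5 were above those of vit-3 and vit-4, which overlapped with each other, and vit-1 overlapped with all 3. Among 16081 protein-coding genes of the adult table, between 37.0% (vit-4) and 47.6% (vit-2) had a lower wt level per kb of span. Among the 2178 X-linked protein-coding genes, 58.7% lay below vit-4 and 71.7% below vit-2. The X-linked median was 0.334 CPM per kb and the median of all protein-coding genes 1.58 CPM per kb, so the 5 X-linked vitellogenins were above the first and below the second.

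**Figure D1:**
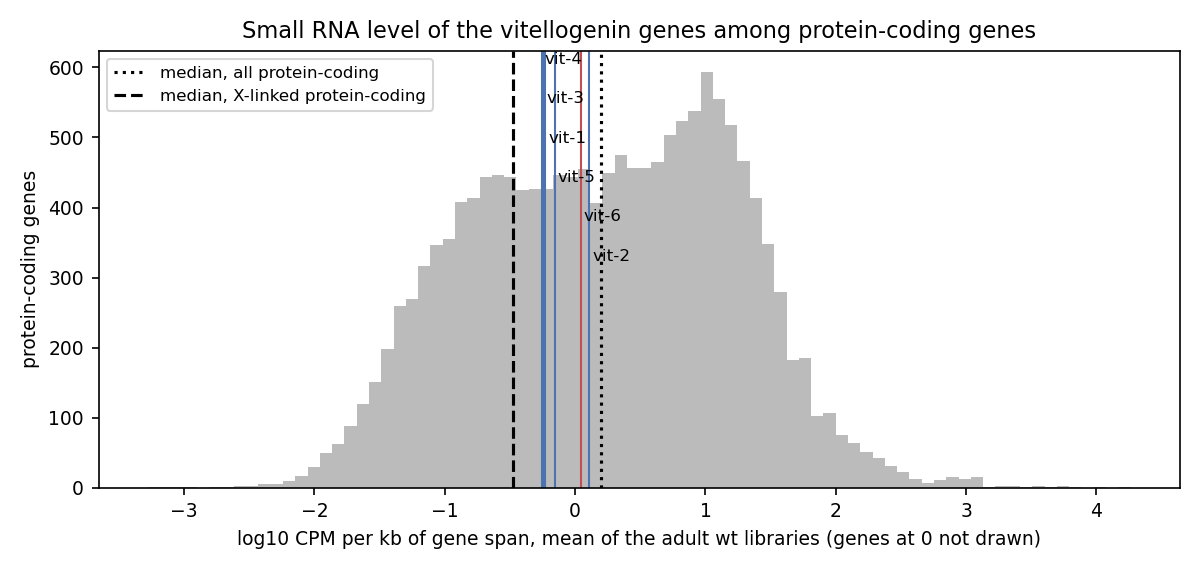
Histogram of the small RNA level of protein-coding genes in wt adults (log10 CPM per kb of gene span, mean of 2 libraries), with a line for each vitellogenin gene and for 2 medians. All 6 lines fall between the X-linked median (0.334 CPM per kb) and the median of all protein-coding genes (1.58 CPM per kb).

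Adult counts of 5 of the 6 genes were not whole numbers. Such fractions arise when a read is divided among several genes, and which genes shared a read is not recorded. They were found for vit-3 and vit-5 in 8 of 8 libraries, for vit-4 in 7, for vit-1 in 4 and for vit-2 in 2. The more distant copy vit-6 held whole numbers in every library. The same fraction, to within 0.015, stood in vit-3 and vit-4 in 4 of 8 libraries and in vit-3, vit-4 and vit-5 in 2 of 8. The counts of the adjacent genes vit-3 and vit-4 differed by at least 0.5 and at most 3.5 reads in any library. The levels of vit-3, vit-4 and vit-5 are uncertain one by one, and they were also tested as 1 summed row. Annotated noncoding genes overlap vit-3 (T27A10.8) and vit-4 (F59D8.3) and had at most 1.17 reads each in any adult library, fractions among them. The protein-coding gene C42D8.9 overlaps vit-2 and had at most 3 reads in an adult library, with 1.5 in nip3_qe17 replicate 2. Counting error alone, taken as the square root of the count, came to 12.2% of the count for vit-6 in nip2nip3 replicate 3, at 67 reads, and to 29.1% for vit-4 in nip2nip3 replicate 2, at 11.83 reads.

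**Figure D2:**
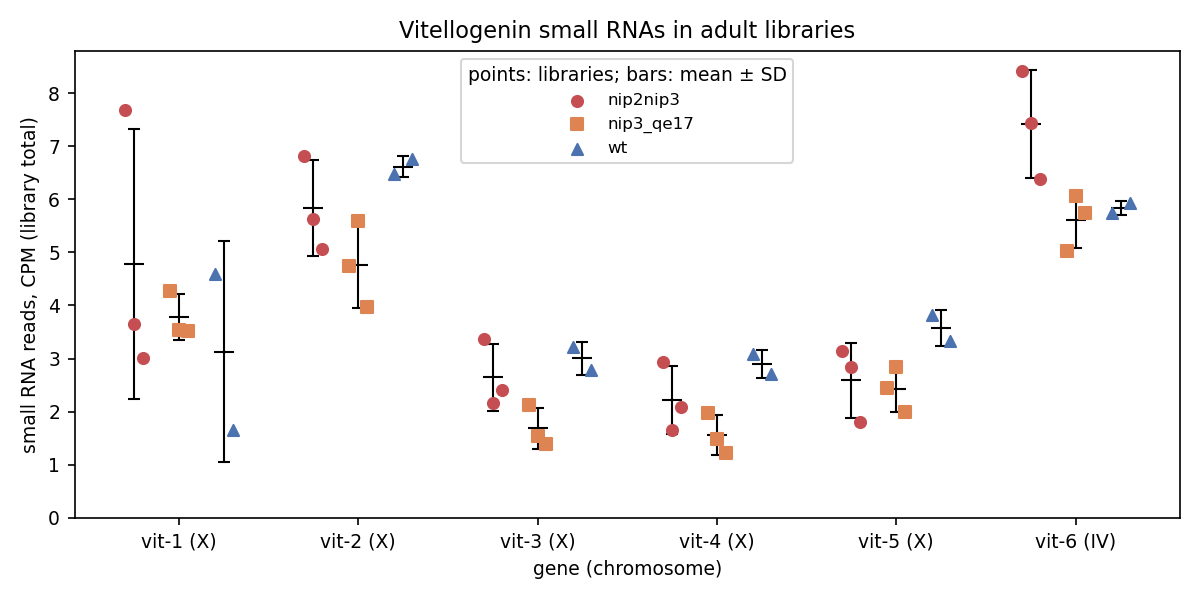
Small RNA level of each vitellogenin gene in the 8 adult libraries (CPM of the library total, linear axis from 0). Points are libraries, bars the mean ± SD of nip2nip3 and nip3_qe17 (3 libraries each) and wt (2 libraries). The nip2nip3 libraries of vit-6 lie above all others of that gene, and vit-1 spreads most.

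In nip2nip3 adults against wt, vit-6 was higher. It had 8.41, 7.45 and 6.39 CPM in nip2nip3 adults, against 5.74 and 5.93 CPM in wt adults. All 3 nip2nip3 libraries were above both wt libraries. The log2 fold change was 0.65 (SE 0.21, 95% confidence interval 0.18 to 1.12, adjusted p = 0.0306, edgeR's quasi-likelihood test with Benjamini-Hochberg adjustment over 16585 genes). In the same comparison 43.2% of all genes tested passed in either direction, 21.9% higher and 21.3% lower, so the share of members called, 1 of 6, was below the background. With library totals 2234 genes rose and 5955 fell, and with scaling on microRNAs 1547 and 7351, where 3638 and 3525 did with TMM scaling. The vit-6 call depended on the scaling: with library totals the log2 fold change was 0.34 (adjusted p = 0.227) and with scaling on microRNAs 0.11 (adjusted p = 0.704). It also depended on single libraries, with an adjusted p of 0.128 without wt replicate 1, 0.112 without wt replicate 3, 0.0780 without nip2nip3 replicate 1, 0.0607 without nip2nip3 replicate 2 and 0.0513 without nip3_qe17 replicate 3. DESeq2 gave a log2 fold change of 0.62 with an adjusted p of 0.0965.

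For vit-1 the counts were 53, 26 and 31.5 reads in nip2nip3 adults, against 31.25 and 12 reads in wt adults. The groups overlapped. The log2 fold change of 0.92 had the widest error of the 6 (SE 0.50, adjusted p = 0.162), and it came to 1.83 without wt replicate 1, to 0.35 without wt replicate 3 and to 0.40 without nip2nip3 replicate 1. For vit-2 the levels were 6.82, 5.62 and 5.06 CPM in nip2nip3 adults, against 6.48 and 6.75 CPM in wt adults, with a log2 fold change of 0.12 (SE 0.24, 95% confidence interval -0.42 to 0.66). The copies vit-3, vit-4 and vit-5 spread more in nip2nip3 adults than in wt adults. Levels of vit-3 were 3.36, 2.15 and 2.42 CPM in nip2nip3 adults, and those of vit-4 were 2.93, 1.66 and 2.08 CPM. Levels of vit-5 were 3.14, 2.83 and 1.80 CPM in nip2nip3 adults, all below both wt libraries on the CPM scale. With TMM scaling the groups overlapped for vit-5, and for vit-3 and vit-4 they overlapped on both scales. Replicate 1 was the highest nip2nip3 library for all 6 members. The log2 fold changes of vit-3, vit-4 and vit-5 were 0.11, -0.08 and -0.17, with standard errors between 0.33 and 0.36 and adjusted p of at least 0.707. Summed to 1 row, vit-3, vit-4 and vit-5 had a log2 fold change of -0.04 (SE 0.26, 95% confidence interval -0.63 to 0.54). The median of the 6 members was 0.12, beside 0.05 for all genes tested. The signs of vit-2 and vit-3 turned negative with library totals, which moved the median of all genes to -0.27, and relative to that median both stayed above it.

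In nip3_qe17 adults against the same wt libraries no member passed, in edgeR or in DESeq2, and 0 had an unadjusted p under 0.05. In this comparison 37% of all genes tested passed, 17.8% higher and 19.1% lower. The split was 2959 genes higher and 3176 lower with TMM scaling, 1834 and 5045 with library totals, and 1374 and 6961 with scaling on microRNAs. The lowest fold changes were those of the adjacent genes. For vit-4 the levels were 1.97, 1.49 and 1.22 CPM in nip3_qe17 adults, against 3.08 and 2.71 CPM in wt adults, with a log2 fold change of -0.66 (SE 0.38, adjusted p = 0.200). For vit-3 they were 2.13, 1.54 and 1.40 CPM in nip3_qe17 adults, against 3.23 and 2.78 CPM in wt adults, with a log2 fold change of -0.59 (SE 0.36, adjusted p = 0.231). In both genes every nip3_qe17 library was below both wt libraries on the CPM scale. With TMM scaling that held for vit-4, while vit-3 had 2.373 CPM in nip3_qe17 replicate 1 and 2.3665 CPM in wt replicate 3. Their summed row with vit-5 had a log2 fold change of -0.48 (SE 0.27, 95% confidence interval -1.07 to 0.11, adjusted p = 0.190). With scaling on microRNAs vit-2, vit-3 and vit-4 did pass, at log2 fold changes of -0.67, -1.06 and -1.13, where the median of all genes moved to -0.46.

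Of the other genes, vit-6 had 5.03, 6.05 and 5.75 CPM in nip3_qe17 adults, against 5.74 and 5.93 CPM in wt adults. Those groups overlapped, and the log2 fold change was 0.22 (SE 0.21, 95% confidence interval -0.25 to 0.70). For vit-2 the levels were 4.75, 5.59 and 3.97 CPM in nip3_qe17 adults, against 6.48 and 6.75 CPM in wt adults, with a log2 fold change of -0.20 (SE 0.24). On the CPM scale all 3 nip3_qe17 libraries were below both wt libraries. So they were for vit-5, at 2.44, 2.84 and 1.99 CPM in nip3_qe17 adults (log2 fold change -0.28, SE 0.33). With TMM scaling the groups overlapped for vit-2 and for vit-5. For vit-1, at 4.28, 3.54 and 3.51 CPM in nip3_qe17 adults, the log2 fold change was 0.54 (SE 0.51), and it was -0.027 without wt replicate 3 and 1.45 without wt replicate 1. The median of the 6 was -0.24, beside 0.01 for all genes tested.

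In nip2nip3 adults against nip3_qe17 adults all 6 log2 fold changes were above 0, and none passed in edgeR or DESeq2. The background was low here: 4.19% of all genes tested passed, 2.72% higher and 1.47% lower. The value of vit-3 was 0.70 (SE 0.33, 95% confidence interval -0.03 to 1.43, adjusted p = 0.289) and that of vit-4 was 0.58 (SE 0.35, adjusted p = 0.407). For vit-6 it was 0.43 (SE 0.18, 95% confidence interval 0.02 to 0.84). It had the only unadjusted p under 0.05 among the 6, 0.0417, with an adjusted p of 0.249. For vit-1, vit-2 and vit-5 the log2 fold changes were 0.38, 0.32 and 0.11. The difference of vit-6 between the mutants was thus not shown, although it passed against wt in nip2nip3 alone. The 3 adult comparisons share libraries and are given side by side only.

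**Figure D3:**
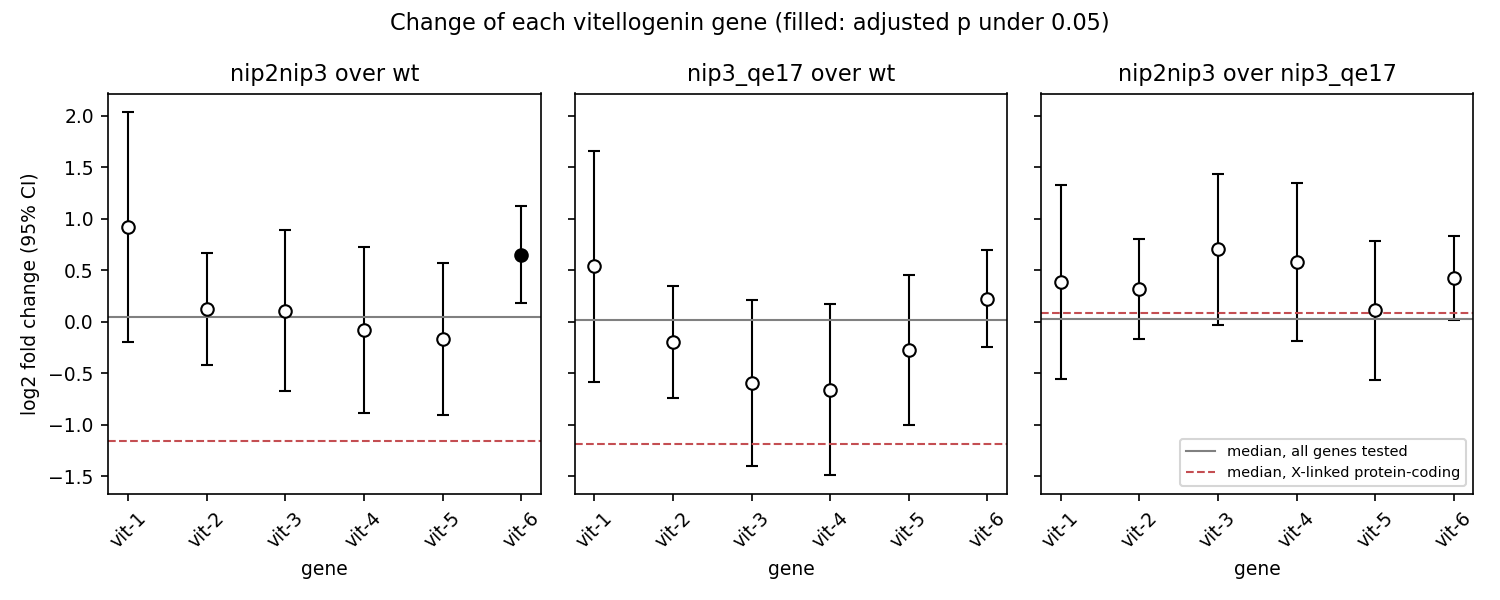
Log2 fold change of each vitellogenin gene in the 3 adult comparisons, with 95% confidence intervals (points filled where the adjusted p was under 0.05). The grey line is the median of all genes tested and the dashed line that of X-linked protein-coding genes, which lies at -1.15, -1.19 and 0.09 in the 3 panels.

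Small RNAs at X-linked genes were mostly lower in both mutants. Of 975 X-linked protein-coding genes tested, 549 fell and 76 rose in nip2nip3 adults against wt, with a median log2 fold change of -1.15. In nip3_qe17 adults against wt 554 fell and 60 rose, with a median of -1.19. Against those genes vit-1 to vit-5 lay toward the upper end: in nip2nip3 between 74.1% (vit-5) and 91.4% (vit-1) of the X-linked genes had a lower fold change, and in nip3_qe17 between 65.5% (vit-4) and 89.4% (vit-1). Among the 295 X-linked protein-coding genes whose mean adult count was in the range of vit-1 to vit-5, the medians were -1.001 in nip2nip3 and -1.02 in nip3_qe17. These shares describe where the members lay and were not tested. Against 9505 autosomal protein-coding genes, 77.5% had a lower fold change than vit-6 in nip2nip3 and 66.1% in nip3_qe17.

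Of the nearest protein-coding genes on each side, chosen by position after the vitellogenin values were known, 3 had enough reads to be tested in adults: unc-78 by vit-5, acn-1 by vit-2 and rgs-7 by vit-4. The others with adult counts had few reads: set-12, 165 bases past vit-1, had 1 to 8, C42D8.1, 3336 bases past vit-2, had at most 2, and beside vit-6 K07H8.7 had 3 to 18 and K07H8.8 at most 2. No neighbour of vit-1 or vit-6 could therefore be tested. The actin-regulating gene unc-78 starts 70 bases past vit-5 in coordinate order and had 17, 10 and 24 reads in nip2nip3 adults and 16, 23 and 23 in nip3_qe17 adults, against 36 and 45 in wt adults. All mutant libraries were below both wt libraries, with log2 fold changes of -1.15 (SE 0.31, adjusted p = 0.0122) and -1.09 (SE 0.30, adjusted p = 0.0163). Its calls were lost without wt replicate 3 (adjusted p of 0.0749 in nip2nip3 and 0.0987 in nip3_qe17) and, for nip3_qe17, also without wt replicate 1 (0.0525) or nip3_qe17 replicate 3 (0.0575). The gene acn-1, which encodes a protein like angiotensin-converting enzyme and lies 3964 bases before vit-2, had 11, 5.5 and 14 reads in nip2nip3 adults and 5, 14 and 10.25 in nip3_qe17 adults, against 41 and 47 in wt adults. Its log2 fold changes were -1.98 in nip2nip3 (SE 0.32, adjusted p = 0.000788) and -2.33 in nip3_qe17 (SE 0.33, adjusted p = 0.000315), beside 0.12 and -0.20 for vit-2. The gene rgs-7, a regulator of G protein signaling that lies 985 bases before vit-4, did not pass (log2 fold changes of -0.42 and -0.37), though it did with scaling on microRNAs (-0.96 and -0.84). No test of the difference between a vitellogenin and its neighbour was made.

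In embryos no vitellogenin read was counted. Each of the 6 genes had 0 reads in both nipnip2 and both wt libraries of the input, and 0 in both nipnip2 and both wt libraries of the NRDE-3 IP. A count of 0 allows up to 3 reads, which is 1.64 and 2.61 CPM in the nipnip2 inputs and 1.46 and 1.36 CPM in the wt inputs, and 0.865 and 1.01 CPM in the nipnip2 IPs and 0.665 and 0.504 CPM in the wt IPs. Over both libraries of a group the limit was 1.01 CPM in nipnip2 inputs, 0.704 CPM in wt inputs, 0.467 CPM in nipnip2 IPs and 0.287 CPM in wt IPs. These limits cover counting error only. No member could be tested in the embryo comparisons, neither nipnip2 against wt nor IP against input. The adult and embryo tables were made apart, so a fold between them is not given. In the adult libraries the 6 genes together had 32.3, 23.4 and 20.7 CPM in nip2nip3, 20.6, 21.0 and 17.8 CPM in nip3_qe17, and 26.9 and 23.2 CPM in wt.

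**Figure D4:**
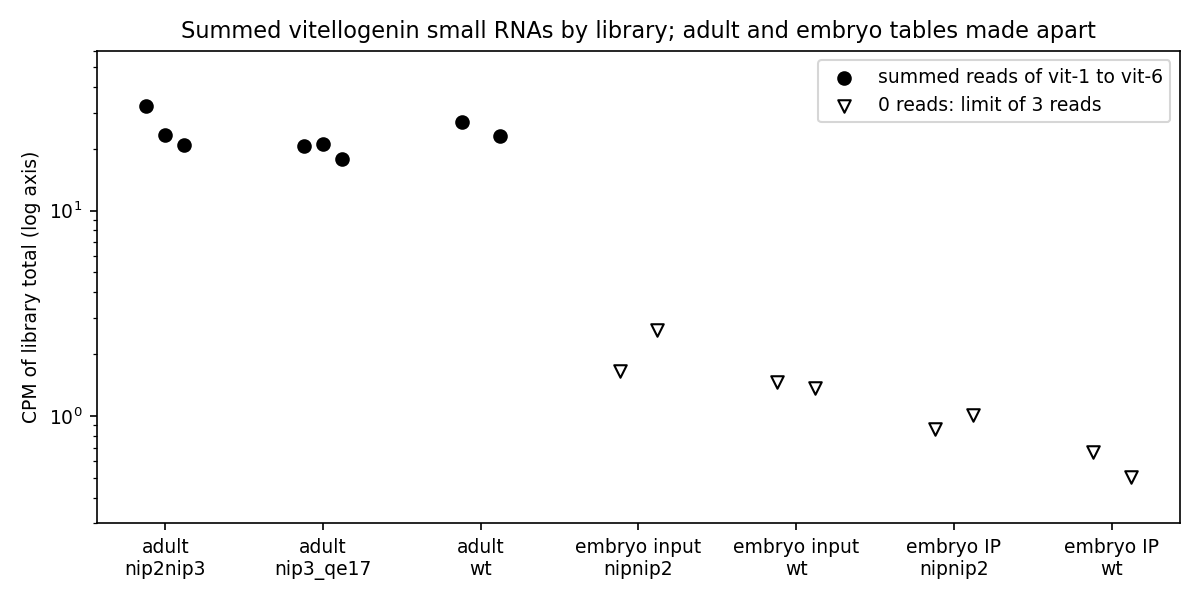
Summed small RNA level of vit-1 to vit-6 in each library (CPM of the library total, log axis). Filled points are summed reads in the 8 adult libraries, between 17.8 and 32.3 CPM, and open triangles mark the limit of 3 reads in the 8 embryo libraries, which had 0 reads.

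Zero counts in embryos were not the rule for genes of this level. Of 2307 protein-coding genes whose mean adult count was between 17.04 and 52.5 reads, the range of the 6 members, 246 (10.7%) had 0 reads in all 8 embryo libraries, and the median gene had 19 reads over the 4 inputs. Among the 330 of these on the X chromosome, 12 (3.64%) had 0 reads in all 8. Both counts include the members themselves, all 6 among the 246 and vit-1 to vit-5 among the 12. The neighbours were mixed. Those at 0 in all 8 embryo libraries were spp-14 before vit-1, C42D8.9 over vit-2, T27A10.5 past vit-3 and K07H8.7 before vit-6. The neighbours K07H8.8 and C42D8.1 had at most 3 reads, and set-12 had 6 and 1 input reads in nipnip2 and 3 and 6 in wt. Of the genes tested in adults, rgs-7 had 24 and 7 input reads in nipnip2 and 7 and 12 in wt, unc-78 had 8 and 1 in nipnip2 and 10 and 9 in wt, and acn-1 had 90 and 36 in nipnip2 and 21 and 28 in wt. In input acn-1 was higher in nipnip2 than in wt (log2 fold change 1.25, SE 0.30, adjusted p = 0.0403), a call lost in DESeq2 (0.161) and without the first nipnip2 library (0.196), and rgs-7 did not pass (0.60, SE 0.46). The embryo tables hold whole numbers only, with no divided reads. Whether reads with several matches were dropped there is not given and was not tested. Reads at vit-6 were whole numbers in all 8 adult libraries, and it was at 0 in embryos as well.

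The genes whose levels across the 8 adult libraries most resembled the summed vitellogenin level were all piRNA genes of chromosome IV: 21ur-47 (Pearson's r of 0.970), 21ur-554 (0.958), 21ur-13102 (0.957), 21ur-3531 (0.9501) and 21ur-11255 (0.949), out of 12436 genes that averaged 20 or more reads. The likeness followed nip2nip3 replicate 1, in which 21ur-47 had 29.3 CPM beside 20.2 and 14.5 CPM in the other nip2nip3 libraries and 22.1 and 16.4 CPM in wt. These are descriptions over 8 libraries that share depth and composition, picked as the highest of many, and carry no test.

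Of 23 genes known to control vitellogenin expression 17 were tested for their small RNAs. In nip2nip3 adults against wt 3 rose and 5 fell (median log2 fold change -0.21, beside 0.05 for all genes), in nip3_qe17 adults against wt 3 rose and 7 fell (median -0.19, beside 0.01), and in nip2nip3 against nip3_qe17 adults 1 rose and 0 fell. Over all genes tested 43.2%, 37% and 4.19% passed in these comparisons, beside 8, 10 and 1 of 17 here, and no test was made of those shares. The list covers the body-size and larval-arrest branches of TGF-beta signaling, insulin and TOR complex signaling, sex determination and intestinal transcription factors.

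The largest rise of the list in nip2nip3 was at sma-2, which encodes a Smad protein of the body-size branch. It had 63.1, 60.8 and 61.6 CPM in nip2nip3 adults and 4.09, 5.59 and 5.02 CPM in nip3_qe17 adults, against 2.35 and 2.76 CPM in wt adults. The 3 groups did not overlap, with log2 fold changes of 4.90 (SE 0.16, adjusted p = 1.21e-08) and 1.22 (SE 0.19, adjusted p = 0.000517) against wt and of 3.68 (SE 0.12, adjusted p = 5.89e-08) between the mutants. Its partner Smad gene sma-3, with the largest rise in nip3_qe17, had 24.9, 34.8 and 33.8 CPM in nip2nip3 adults and 23.9, 30.0 and 31.1 CPM in nip3_qe17 adults, against 10.4 and 13.0 CPM in wt adults. All 6 mutant libraries were above both wt libraries (log2 fold changes of 1.72 and 1.55). The remaining gene to rise, rict-1, which encodes the Rictor subunit of TOR complex 2, had log2 fold changes of 0.36 (adjusted p = 0.0474) and 0.43 (adjusted p = 0.0229). Both calls were lost in DESeq2, with no filter on low counts, without wt replicate 3 and without nip3_qe17 replicate 3, and that in nip2nip3 also without any 1 nip2nip3 library, without nip3_qe17 replicate 2 and with RLE scaling (adjusted p between 0.0501 and 0.318). With library totals its adjusted p was 0.817 in nip2nip3 and 0.386 in nip3_qe17, and with scaling on microRNAs its sign turned (-0.18 and -0.03).

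The largest fall of the list in both mutants was at daf-7, the TGF-beta ligand of the larval-arrest branch. It had 3.84, 5.13 and 3.91 CPM in nip2nip3 adults and 2.75, 2.89 and 2.87 CPM in nip3_qe17 adults, against 46.7 and 51.8 CPM in wt adults, with log2 fold changes of -3.23 (SE 0.15) and -3.82 (SE 0.16). The X-linked kinase gene sgk-1, which acts below TOR complex 2, had 0.870, 2.11 and 1.34 CPM in nip2nip3 adults and 1.26, 1.44 and 2.21 CPM in nip3_qe17 adults, against 10.01 and 10.7 CPM in wt adults (log2 fold changes of -2.54 and -2.35). Mutant and wt libraries did not overlap for either gene. The forkhead transcription factor gene daf-16, the main target of insulin signaling, had 91.0, 64.8 and 70.9 CPM in nip2nip3 adults and 106, 102 and 92.8 CPM in nip3_qe17 adults, against 244 and 227 CPM in wt adults, with log2 fold changes of -1.32 and -0.95. Of the remaining genes tra-1, the zinc-finger gene that sets hermaphrodite fate, fell in both mutants (-1.01 and -0.87), as did nhr-49, a nuclear receptor gene of fat metabolism (-0.45 and -0.40). In nip3_qe17 alone the insulin receptor gene daf-2 (-0.37) and the TGF-beta cofactor gene sma-9 (-0.49) also passed. Without wt replicate 1 the calls of daf-2 (adjusted p = 0.0528), sma-9 (0.0759) and nhr-49 (0.0654 in nip2nip3 and 0.108 in nip3_qe17) were lost. That of sma-9 was also lost without wt replicate 3 (0.137) or nip3_qe17 replicate 3 (0.0885). The intestinal activator gene unc-62, a homeobox gene needed for vitellogenin expression, did not pass (-0.14 in nip2nip3 and 0.12 in nip3_qe17).

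Genes of yolk uptake and endocytosis were all tested, 17 of 17. In nip2nip3 adults 0 rose and 5 fell (median -0.39), in nip3_qe17 adults 1 rose and 5 fell (median -0.15), beside medians of 0.05 and 0.01 and shares called of 43.2% and 37% for all genes tested, so these counts did not exceed the background. Between the mutants none passed in edgeR or DESeq2, with 1 at an unadjusted p under 0.05. The receptor gene rme-2 itself had 175, 181 and 162 CPM in nip2nip3 adults and 189, 210 and 201 CPM in nip3_qe17 adults, against 269 and 244 CPM in wt adults. All 6 mutant libraries were below both wt libraries on this scale. Its log2 fold changes of -0.25 (SE 0.10, adjusted p = 0.0699) and -0.08 (SE 0.10, adjusted p = 0.576) did not pass. With library totals both passed, at -0.57 and -0.36, and with scaling on microRNAs too, at -0.79 and -0.55.

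The gene rme-6, an activator of the early endosome GTPase RAB-5, fell most. It had 1.31, 1.55 and 2.77 CPM in nip2nip3 adults and 0.786, 1.44 and 2.87 CPM in nip3_qe17 adults, against 39.2 and 51.6 CPM in wt adults, with log2 fold changes of -4.21 (SE 0.34) and -4.35 (SE 0.34). The clathrin adaptor gene dpy-23 had 2.32, 1.26 and 2.29 CPM in nip2nip3 adults and 1.47, 1.47 and 2.28 CPM in nip3_qe17 adults, against 11.3 and 11.7 CPM in wt adults (log2 fold changes of -2.22 and -2.43). Both genes are on the X chromosome, with the X-linked fall described above beside them. The autosomal gene num-1, the worm homologue of Numb, had 13.0, 13.4 and 16.1 CPM in nip2nip3 adults and 16.98, 16.5 and 17.8 CPM in nip3_qe17 adults, against 63.4 and 66.4 CPM in wt adults (-1.87 and -1.65). The epsin gene epn-1 also fell in both mutants (-1.62 and -0.82), the adaptor gene dab-1 in nip2nip3 (-0.44) and the caveolin gene cav-1 in nip3_qe17 (-1.41). The clathrin heavy chain gene chc-1 rose by 0.35 in nip3_qe17 adults, with an adjusted p of 0.633 under library totals and a turned sign, -0.13, with scaling on microRNAs. Without wt replicate 1 or wt replicate 3 the calls of chc-1, cav-1 and, in nip3_qe17, epn-1 were lost (adjusted p between 0.0715 and 0.143). The call of cav-1 was also lost without nip3_qe17 replicate 2 (0.0533) or 3 (0.0994), and that of epn-1 in nip3_qe17 without nip3_qe17 replicate 2 (0.0879). So was that of dab-1 without wt replicate 1 (0.142) or nip2nip3 replicate 3 (0.0723).

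Of 28 genes of lipid transport and stores 15 were tested, and in each mutant 1 rose and 3 fell, with medians of -0.13 in nip2nip3 and -0.07 in nip3_qe17. That is 4 of 15, below the 43.2% and 37% of all genes tested, whose medians were 0.05 and 0.01. None passed between the mutants in edgeR or DESeq2, with 4 at an unadjusted p under 0.05. The desaturase gene fat-2, which acts in the making of polyunsaturated fatty acids, had 53.4, 56.5 and 49.1 CPM in nip2nip3 adults and 38.7, 45.3 and 47.2 CPM in nip3_qe17 adults, against 14.7 and 14.1 CPM in wt adults, with log2 fold changes of 2.19 (SE 0.12) and 1.88 (SE 0.12). The X-linked fatty acid binding protein gene lbp-1 had 4.64, 2.81 and 1.91 CPM in nip2nip3 adults and 1.89, 1.77 and 1.82 CPM in nip3_qe17 adults, against 36.9 and 35.003 CPM in wt adults (-3.25 and -4.03). The acyltransferase gene dgat-2, of triglyceride synthesis, also fell in both mutants (-3.05 and -2.22), as did the acetyl-CoA carboxylase gene pod-2 (-0.52 and -0.30). The nip3_qe17 call of pod-2 was lost without either wt replicate and without nip3_qe17 replicate 1 or 3 (adjusted p between 0.0540 and 0.223).

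**Figure D5:**
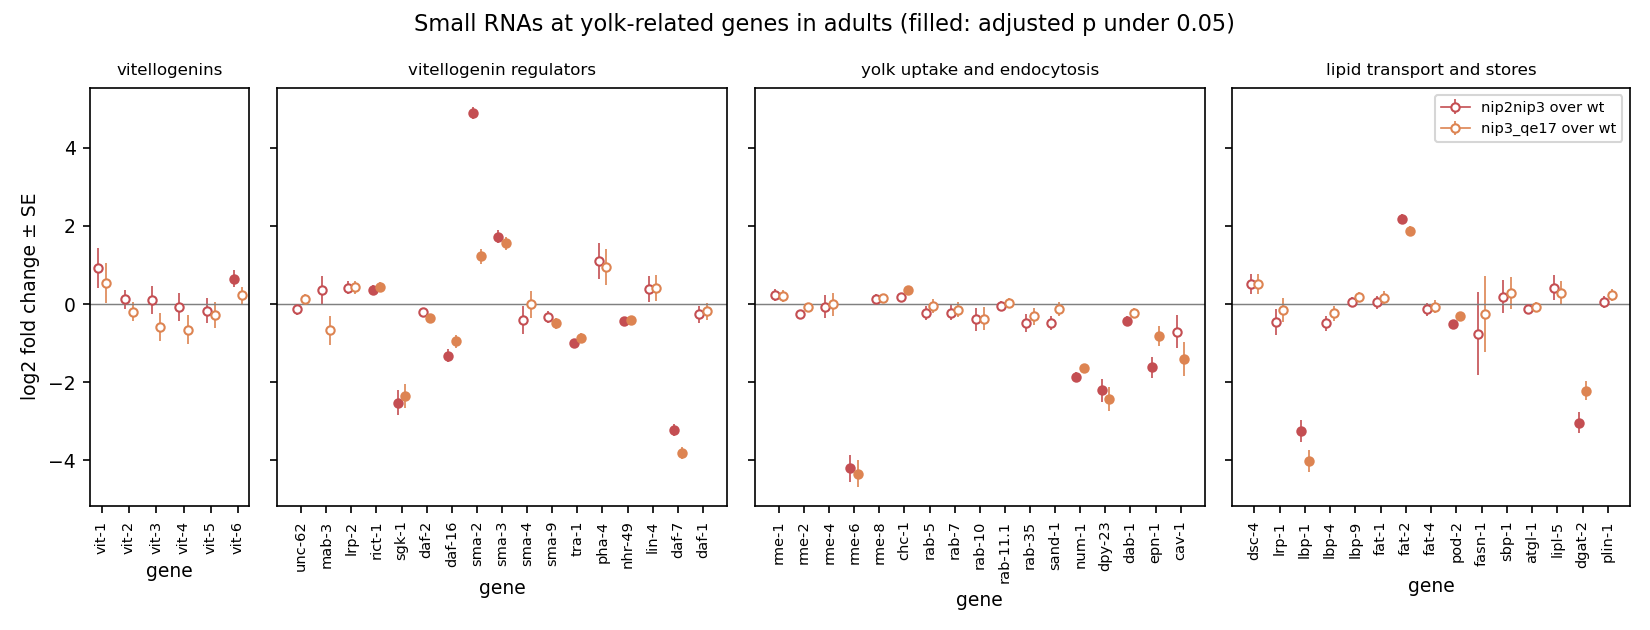
Log2 fold change ± SE at the vitellogenin genes and at the tested genes of 3 lists (regulators, yolk uptake and endocytosis, lipid transport and stores) in nip2nip3 and nip3_qe17 adults over wt. Filled points passed at an adjusted p under 0.05. The vitellogenins lie within 1 log2 unit of 0, while sma-2 reaches 4.90 and rme-6 -4.35.

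Of the marker lists for other cell types, the sperm list was called throughout in edgeR and the intestine and oocyte lists were not. Over all genes tested 43.2% passed in nip2nip3 and 37% in nip3_qe17. DESeq2 called 29 genes of the sperm list in nip2nip3 and 28 in nip3_qe17. The major sperm protein genes rose in both mutants, 30 of 30 tested (median log2 fold changes of 1.67 and 1.44), and their summed level was 400 to 497 CPM in nip2nip3, 376 to 421 CPM in nip3_qe17 and 152 to 190 CPM in wt adults. Reads shared among these genes were not set apart, so the 30 calls may not be separate results. Of 9 listed intestine genes with adult counts, 3 were tested and 1 rose, the protease gene cpr-1 (2.52 in nip2nip3 and 2.65 in nip3_qe17, named after its values were seen). Summed over the 9, none of them at 0 throughout a group, the level was 9.44 to 14.8 CPM in nip2nip3, 9.04 to 15.3 CPM in nip3_qe17 and 6.03 to 7.05 CPM in wt adults. Of 7 oocyte genes tested, 0 rose and 2 fell in nip2nip3 (median -0.25) and 1 rose and 1 fell in nip3_qe17 (median -0.081), with summed levels over 9 genes of 510 to 553 CPM, 534 to 624 CPM and, in wt, 692 to 719 CPM. Small RNAs at a gene need not follow its messenger RNA, so these lists do not measure tissue, and their part in the vitellogenin values was not tested. In whole animals, fewer cells of a type and less RNA per cell cannot be told apart. The intestine list shares elt-2 and fat-7 with the other lists, and the oocyte list holds rme-2.

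In embryos the related lists had few tested genes. In input 6.35% of 8505 genes passed in nipnip2 against wt, and in the NRDE-3 IP 33.4% of 2619 genes. These shares depend on the scaling. In input 109 genes rose and 431 fell in the main fit, against 1458 and 290 with library totals and 6954 and 115 with scaling on microRNAs. In IP 262 rose and 614 fell, against 2027 and 149 with library totals and 1972 and 58 with scaling on microRNAs. The medians of all genes moved to 0.58 and 1.53 in input and to 2.09 and 2.33 in IP.

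Among regulators lrp-2, a gene of the LDL receptor family known to promote vitellogenin synthesis, was the only call in input (of 9 tested) and in IP (of 5 tested). It had 8.77 and 8.70 CPM in nipnip2 inputs, against 16.98 and 15.4 CPM in wt inputs, and 28.5 and 33.5 CPM in nipnip2 IPs, against 38.6 and 26.7 CPM in wt IPs. The input groups did not overlap and the IP groups did. Its log2 fold changes were -1.47 (SE 0.33, adjusted p = 0.0274) in input and -1.98 (SE 0.32, adjusted p = 7.79e-09) in IP, both relative to the other genes under TMM scaling. With library totals they were -0.89 (adjusted p = 0.0778) and -0.07 (adjusted p = 0.839), and with scaling on microRNAs 0.070 and 0.050. The input call was also lost in DESeq2 (adjusted p = 0.199) and without the first nipnip2 library (0.0936), and the IP call with a mean of at least 50 counts (log2 fold change -0.20, adjusted p = 0.517). In adults lrp-2 did not pass (log2 fold changes of 0.42 and 0.43, adjusted p = 0.0648 and 0.0640), at 19.002, 16.2 and 17.9 CPM in nip2nip3 and 17.1, 18.7 and 19.2 CPM in nip3_qe17, against 18.8 and 14.2 CPM in wt.

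Of the uptake genes 0 of 15 passed in input, with 0 at an unadjusted p under 0.05 and 0 in DESeq2, and 1 of 8 in IP, the caveolin gene cav-1, with 22 and 12 reads in nipnip2 IPs, against 1 and 1 in wt IPs (log2 fold change 2.78, SE 0.75). The receptor gene rme-2 had 96.5 and 66.1 CPM in nipnip2 inputs, against 60.2 and 55.4 CPM in wt inputs, and at most 8.07 CPM in any IP, and did not pass in either. Of the lipid genes 0 of 11 passed in input, with 2 at an unadjusted p under 0.05 and 0 in DESeq2, and 1 of 2 in IP, lbp-1, at 18.7 and 15.6 CPM in nipnip2 IPs, against 2.22 and 2.01 CPM in wt IPs (log2 fold change 1.10, adjusted p = 0.0324). With library totals the lbp-1 value was 3.01, where the median of all genes was 2.09. In DESeq2 neither gene passed. The IP calls of cav-1 and lbp-1 were lost without either wt IP library (adjusted p between 0.0570 and 0.195), and that of lbp-1 also without the first nipnip2 library (0.0650).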

How the data were processed

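Small RNAs were measured per gene in adults, embryo inputs and embryo NRDE-3 IPs. Per the submitters' processing notes, reads were trimmed with cutadapt, aligned with STAR to ce11 and counted with featureCounts, and DESeq2 was used; versions, strand and options are not given in the sources used here. The authors deposited estimated counts for adults (fractions where reads were shared, rounded here before testing) and whole raw counts for embryos. One row that names no gene was left out, at most 0.0320% of a library. Symbols matched 28876 of 31003 adult and 43720 of 46739 embryo identifiers; positions came from RefSeq (WBcel235). CPM used the total on genes. Tests used edgeR 4.0.16 in R 4.3.3 (quasi-likelihood, filterByExpr, TMM, false discovery rate 0.05 over all genes), with 1 fit of all 8 adult libraries and 1 of each embryo table, and no covariates.

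Alternatives were DESeq2 1.42.0, other scalings and filters, a replicate block, 2 groups at a time, leaving out each library and, added after seeing the data, a summed row. No library was a repeat of another. Named genes were the 6 members, in each list up to 3 called genes per direction with a mean of at least 20 reads, and the 5 most alike genes; other named genes were added after their values were seen. The members and lists were chosen with earlier results of these data known. Messenger RNA tests, embryo likeness and levels per coding length, as planned, could not be run, and IP against input held no tested member.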

Additional observations from a re-analysis of the deposited data

Results flagged for a closer look

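The small RNA level at sma-2 had a different response in each mutant: its log2 fold change in nip2nip3 against nip3_qe17 adults was 3.68, larger than its change in nip3_qe17 against wt, and it was higher in 3 of 3 nip2nip3 libraries. Of the 17 tested regulators of the vitellogenins it was the only one to pass between the mutants.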

How the results depend on the processing

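Of the member log2 fold changes under alternatives, 251 kept their sign and side of the threshold, 10 lost the vit-6 call, 4 newly passed and 17 changed sign. Of those of list genes, 698 kept both, 54 lost a call, 5 newly passed and 6 changed sign. In nip2nip3 against wt, 0 members passed with library totals, microRNA scaling, DESeq2 or no filter, and 0 to 1 over libraries left out; in nip3_qe17 against wt 3 passed with microRNA scaling. Signs turned with library totals for vit-2 (-0.19) and vit-3 (-0.21) in nip2nip3 and vit-6 (-0.047) in nip3_qe17, and with microRNA scaling for the same genes (-0.42, -0.43 and -0.25), for rict-1 (-0.18 and -0.033), chc-1 (-0.13) and embryo lrp-2 (0.070 in input, 0.050 in IP). Over libraries left out, nip2nip3 against wt ranged from -0.020 to 0.23 for vit-2, -0.11 to 0.25 for vit-3, -0.31 to 0.10 for vit-4 and -0.36 to 0.067 for vit-5; nip3_qe17 against wt from -0.027 to 1.45 for vit-1 and -0.16 to 0.011 for rme-2; and nip2nip3 against nip3_qe17 from -0.14 to 0.65 for vit-1 and -0.086 to 0.34 for vit-5. In embryo input rgs-7 ranged from -0.034 to 0.98. Genes called ranged over libraries left out from 4435 to 7586 (nip2nip3), 3820 to 6244 (nip3_qe17), 372 to 657 (between mutants) and 609 to 826 (embryo input); an arm left with 1 library was assumed to vary like the others. With a mean of at least 50 counts, which kept only vit-6 of the members, 4508, 3935, 258 (embryo input) and 306 (IP) genes passed; fewer genes were tested. Embryo input calls came to 1748 with library totals, 7069 with microRNA scaling and 1022 with no filter, and IP calls to 2176 and 2030. The cause of the other changes was not tested.

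With the replicate block, vit-1 passed in nip2nip3 against wt (1.07, adjusted p = 0.0309), vit-6 did not (0.64, adjusted p = 0.0527), and vit-4 turned sign (0.030). Whether the numbers pair the libraries was not settled. Deviations from the group mean correlated between -0.0047 and 0.212 for same-numbered libraries and between -0.212 and 0.109 for differently numbered ones. With 2 wt libraries their deviations mirror each other, so correlations with wt replicates 1 and 3 differ in sign only. The 2 ranges are therefore not independent. Low counts, 11.83 to 67 reads a member, limit what could be detected.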
